A study of Mus musculus with 2 samples.

Results

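Interneuron lineage transcription factors are the DNA-binding proteins that specify the inhibitory neurons of the cortex. The 10 genes described here, Dlx1, Dlx2, Dlx5, Dlx6, Lhx6, Sox6, Nkx2-1, Satb1, Prox1 and Maf, were chosen by symbol from the 21938 protein-coding genes of GENCODE M21, an annotation of the mouse assembly mm10. Peaks and footprints of DNase-seq were read over each gene span plus 50 kb on both sides, and over the stretches between the paired Dlx genes. All positions are 1-based in mm10.

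Cortical interneurons are born in the ganglionic eminences of the embryonic ventral forebrain and migrate into the cortex. Dlx1 and Dlx2 start this programme in ventral progenitors and Dlx5 and Dlx6 act after them, with each pair lying side by side in the genome. Nkx2-1 marks the medial eminence and turns on Lhx6, a LIM homeodomain gene kept on in parvalbumin and somatostatin interneurons, while Nkx2-1 itself is switched off in the cells bound for the cortex. Sox6 and Satb1 act after Lhx6 in the maturation of these cells, and Maf acts in the same lineage. Prox1 acts in interneurons from the caudal eminence. Several of the genes also work elsewhere, for example Satb1 and Sox6 in other neurons and Prox1 in hippocampal granule cells.

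DNase-seq cuts nuclei lightly with DNase I and sequences the freed ends, so that dense cuts mark DNA not wrapped in nucleosomes. Both libraries, replicate 1 and replicate 2, were made from frontal cortex of F1 hybrids, the cross B6CASTF1/J. The mice were males of 14 days, and each library is labelled as tissue of 3 of them. They are 1 group with no treatment, no mutant allele and no contrast, so no test between groups was possible and no p-value is given for any difference. The labels give separate tissue samples but 1 shared donor number, and the spread between the libraries may therefore be partly technical. The read depth is unknown. The tissue is a mixture, and in bulk tissue fewer cells of a type and less open DNA per cell cannot be told apart. Promoter peaks in both libraries were present for 5 of 6 excitatory neuron markers and 6 of 6 GABAergic neuron markers. They were present for 3 of 6 astrocyte, 3 of 6 oligodendrocyte lineage, 2 of 6 microglial and 3 of 6 endothelial and mural markers. Among markers of other brain regions it was 3 of 6. Drd1 (1.86 in replicate 1 and 1.68 in replicate 2), Ppp1r1b (2.16 and 1.85) and Tcf7l2 (1.49 and 1.17) had such peaks, and En1, Hoxa5 and Drd2 had none. The share over all protein-coding genes was 59.7%. Most of the GABAergic markers are also on the list of other interneuron genes read below, where 15 of 24 (62.5%) had such peaks. At the GABAergic marker Erbb4 and the astrocyte marker Gja1 the tallest promoter peaks of the libraries did not overlap. Replicate 1 held 75753 peaks with a median height of 0.848 and replicate 2 held 77035 with a median of 0.801. A height is the authors' signal value for a peak. Its scale was set for each library and is not given in the sources used here.

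Called open DNA was present at promoters of these genes at a share near that of all genes, and the peaks were low. Within 1000 bp of an annotated start site, 7 of the 10 genes had a peak in both libraries, against 59.7% of all protein-coding genes. Dlx1 had one in 1 library alone, as did 4.17% of all genes, and Lhx6 and Nkx2-1 had none. On the shorter of the 2 deposited peak lists, 5 of the 10 had a peak in both libraries, against 53.0%. A peak at any start site counts, and Sox6 has 13 start sites and Satb1 has 12. All 7 open promoters stood below the median promoter height of all genes in both libraries. Their own median heights were 1.52 in replicate 1 and 1.46 in replicate 2, against 3.03 and 2.96 for all genes with a promoter peak. Low heights were not particular to these genes, as the medians of every marker list were also below those of all genes. They were 1.42 and 1.34 for the GABAergic markers, 1.04 and 0.909 for the astrocyte markers and 2.82 and 2.76 for the excitatory neuron markers. The list of other interneuron genes had 1.40 and 1.24. Each of the 7 also stood below the median of its own decile of promoter GC content, read within 1000 bp of the outermost start alone. At Sox6 and Satb1 the tallest promoter peak lay at an internal start, so height and GC content there come from different places. Of the 53 annotated start sites of the 10 genes, 20 had a peak within 1000 bp in both libraries. The same share over all annotated start sites is not given, so this count cannot be read as low or high.

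**Figure D1:**
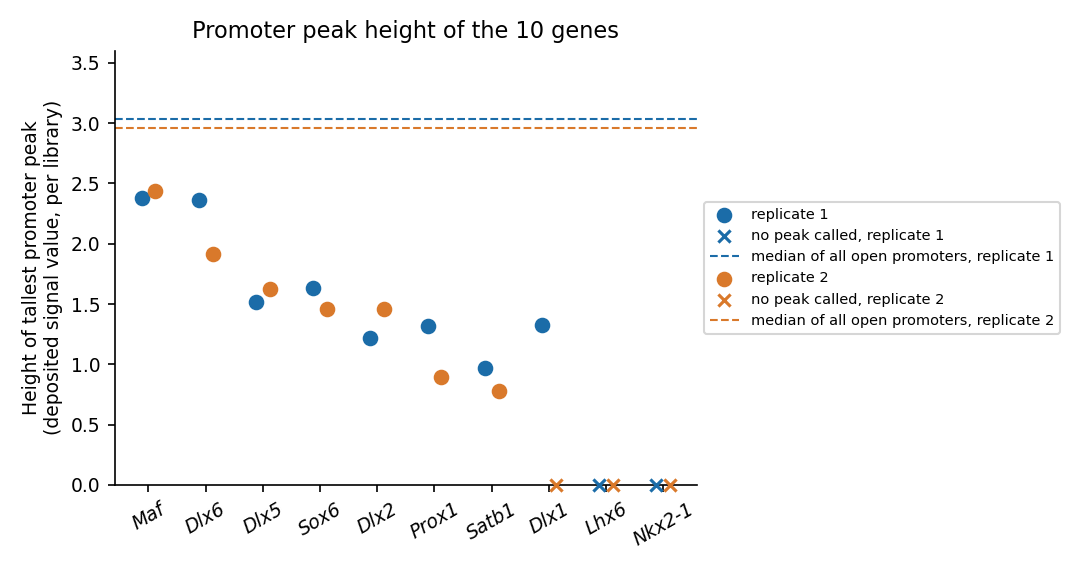
Height of the tallest promoter peak of each of the 10 genes in replicate 1 and replicate 2 (deposited signal value, scaled per library), with crosses where no peak was called and dashed lines at the median of all genes with a promoter peak (3.03 and 2.96). Maf and Dlx6 stand highest, all points lie below the lines, and Lhx6 and Nkx2-1 have crosses in both libraries.

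The sequences below are those of the regions on which the results turn, namely open promoters with bases in footprints of both libraries and the only peak near Nkx2-1. A footprint is a short gap in the cuts inside an open region, a sign that a protein may sit on those bases. They are plus-strand letters of the C57BL/6J reference, printed 5′ to 3′, and the other parent's allele in these hybrids may differ. Capitals mark bases that lay in footprints of both libraries, and protein-coding exons, untranslated parts included, are left out. The Dlx6 promoter region is chr6:6862761-6863020, the Dlx5 promoter region is the upstream part chr6:6882086-6882208, the Sox6 promoter region is chr7:116033001-116033220, the Maf promoter region is the upstream part chr8:115707795-115708080, and the Nkx2-1 upstream region is chr12:56541161-56541380.
Dlx6 promoter region: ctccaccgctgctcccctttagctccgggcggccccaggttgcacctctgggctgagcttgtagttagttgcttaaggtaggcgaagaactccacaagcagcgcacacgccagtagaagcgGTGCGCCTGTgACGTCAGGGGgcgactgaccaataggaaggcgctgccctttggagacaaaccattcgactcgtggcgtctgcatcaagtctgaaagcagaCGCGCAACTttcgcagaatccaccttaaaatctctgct
Dlx5 promoter region: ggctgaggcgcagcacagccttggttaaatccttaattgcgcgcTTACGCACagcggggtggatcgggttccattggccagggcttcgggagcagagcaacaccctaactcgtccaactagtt
Sox6 promoter region: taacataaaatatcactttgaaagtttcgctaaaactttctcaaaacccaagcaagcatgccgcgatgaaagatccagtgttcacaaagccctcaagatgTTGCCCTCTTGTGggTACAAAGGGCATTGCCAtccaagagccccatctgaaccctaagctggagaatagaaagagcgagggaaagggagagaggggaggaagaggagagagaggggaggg
Maf promoter region: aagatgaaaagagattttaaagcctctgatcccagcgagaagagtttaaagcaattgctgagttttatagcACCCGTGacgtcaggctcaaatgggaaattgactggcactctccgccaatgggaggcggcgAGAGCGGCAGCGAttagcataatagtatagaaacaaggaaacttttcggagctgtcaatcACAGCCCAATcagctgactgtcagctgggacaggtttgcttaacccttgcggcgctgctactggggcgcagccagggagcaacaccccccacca
Nkx2-1 upstream region: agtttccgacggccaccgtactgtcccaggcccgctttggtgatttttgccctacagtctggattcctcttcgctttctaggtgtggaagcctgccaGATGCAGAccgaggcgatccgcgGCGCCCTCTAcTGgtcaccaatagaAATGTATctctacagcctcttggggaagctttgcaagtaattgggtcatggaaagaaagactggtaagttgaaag

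The Dlx genes encode homeodomain proteins, and among the 4 of them the pair on chromosome 6 had the taller promoter peaks. Dlx6 (chr6:6863334-6868568, plus strand) had a promoter peak of height 2.36 in replicate 1 and 1.92 in replicate 2 (mean 2.14 ± 0.316, SD, n = 2), at the 41.6th and 35.8th percentile of genes with a promoter peak. This region ended 314 bp upstream of the outermost start, inside the span of the antisense transcript Dlx6os1. Dlx5 (chr6:6877805-6882085, minus strand) had heights of 1.52 and 1.63 (mean 1.57 ± 0.0776, SD, n = 2) in a region of 342 bp across its start. Dlx2 (chr2:71543408-71546754, minus strand) had heights of 1.22 and 1.46 (mean 1.34 ± 0.171, SD, n = 2) at chr2:71546641-71546882, across its start, and a further peak of height 1.06 in replicate 2 alone. The order of Dlx6 over Dlx5 and of Dlx5 over Dlx2 was the same in both libraries. The gap between the libraries at Dlx6 (SD 0.316) was larger than that at Dlx5 or Dlx2.

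Dlx1 (chr2:71528113-71533981, plus strand) had a promoter peak of height 1.33 in replicate 1 at chr2:71529605-71529720, and none in replicate 2. The deposited track of cut rates, which lists bases with a false discovery rate below 0.05, held 213 listed bases at its promoters in replicate 1 (lowest rate 0.00146) and 18 in replicate 2 (lowest rate 0.044). Cuts in replicate 2 thus passed the rate of 0.05 at some bases although no peak was called there. The nearest region called in both libraries was that of the Dlx2 start, 15.9 kb from the last Dlx1 start site.

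No peak lay between the paired Dlx genes. In mouse embryos the stretch between each pair is known for conserved enhancers that drive forebrain expression. The stretch between Dlx1 and Dlx2 is chr2:71533982-71543407 (9426 bp) and that between Dlx5 and Dlx6 is chr6:6868569-6877804 (9236 bp). Both held 0 peaks in either library, on the longer and on the shorter deposited list, and 0 footprints. The cut track listed 0 bases in them, apart from 2 bases in replicate 2 between Dlx1 and Dlx2 (chr2:71541547-71541548), with a rate of 0.0493. The starts of the antisense transcripts Dlx1as, at position 71537891, and Dlx6os1, at position 6871592, lie in these stretches, and neither had a peak or a listed base within 1000 bp. Both stretches lie between genes that face each other with their ends. Among 1125 such stretches of 5 to 20 kb in the genome, a size range chosen after these values were seen, 25.2% held a region called in both libraries and 35.1% a peak in either. An empty stretch was thus the more common state, and the values say only that no open DNA was called there at this depth.

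Beyond the promoters, the Dlx windows held few regions. For Dlx1 and Dlx2 the only region called in both libraries farther than 1000 bp from every start was chr2:71581047-71581260, centred 34.4 kb upstream of Dlx2, with heights of 0.454 in replicate 1 and 0.651 in replicate 2. A peak of replicate 1 alone, chr2:71494601-71494680, reached 0.609. For Dlx5 and Dlx6 the only such region was chr6:6816806-6817000, centred 46.4 kb upstream of Dlx6, with heights of 0.693 and 0.734. Both regions called in both libraries stood below the median peak height of each library. The window of Dlx5 and Dlx6 also held 4 peaks of replicate 1 alone, between 0.418 and 0.931. The tallest, chr6:6885014-6885116, lay away from every start, and 1 of them (0.836) lay at the Dlx5 promoter.

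In the medial eminence series, open promoters were uneven. Nkx2-1 (chr12:56531958-56536908, minus strand) had no peak, no footprint and 0 listed bases within 1000 bp of either of its 2 start sites in either library. The DNA around its outermost start is GC-rich (56.1% GC, decile 8), and 329 of the 2193 genes of that decile had no promoter peak. The only peak in its window of 105 kb was the region printed above, 4253 bp upstream, over the antisense gene Gm26973. It reached 0.920 in replicate 1 and 0.993 in replicate 2 (mean 0.956 ± 0.0516, SD, n = 2), above the median peak height of both libraries. It held 4 footprints in replicate 1 and 3 in replicate 2, and every one of them overlapped a footprint of the other library.

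Lhx6 (chr2:36081953-36105408, minus strand) likewise had no peak, no footprint and 0 listed bases within 1000 bp of any of its 7 start sites. GC content around its outermost start was 57.7% (decile 9), and 284 of the 2193 genes of that decile had no promoter peak. Its nearest region called in both libraries lay inside the gene, at chr2:36091344-36091696, 2577 bp from the internal start at 36094273 and 13.7 kb from the outermost start. The heights there were 0.633 in replicate 1 and 0.742 in replicate 2 (mean 0.688 ± 0.0773, SD, n = 2), below the median of each library. The tallest peaks of the window belonged to neighbours, with 7.76 and 7.94 at the shared promoter of Ndufa8 and Morn5 and 3.15 and 3.66 at that of Rbm18 and Mrrf. The intronic part of the Lhx6 region, chr2:36091416-36091605, is printed as the open DNA nearest to a start of this gene, and it held no base in footprints of both libraries.
Lhx6 internal region: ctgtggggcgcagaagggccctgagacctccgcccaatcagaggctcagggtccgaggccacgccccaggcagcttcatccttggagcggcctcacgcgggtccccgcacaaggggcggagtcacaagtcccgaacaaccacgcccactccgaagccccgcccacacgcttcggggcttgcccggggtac

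Sox6 and Satb1, which encode an SRY-box factor and a chromatin organiser, both had their tallest promoter peaks at internal rather than outermost starts. Sox6 (chr7:115470872-116038796, minus strand) spans 568 kb with 13 start sites. Its tallest promoter peak reached 1.64 in replicate 1 and 1.46 in replicate 2 (mean 1.55 ± 0.125, SD, n = 2) in an intron, centred 491 bp from the start at 116033602. It was the tallest of 6 regions called in both libraries between 116030624 and 116034760, around 3 start sites. At the outermost start the only region of both libraries had heights of 0.310 and 0.309. It also lay within 1000 bp of a start of the neighbour 1110004F10Rik. The promoter region of that neighbour, chr7:116040221-116040500, had 2.45 and 2.69. Beyond 1000 bp of every start, the tallest Sox6 region called in both libraries was the intronic chr7:115966281-115966480, with 1.18 in replicate 1 and 0.742 in replicate 2. This region is printed because it was the only one of those in the 8 windows to hold the homeodomain core TAATTA.
Sox6 intronic region: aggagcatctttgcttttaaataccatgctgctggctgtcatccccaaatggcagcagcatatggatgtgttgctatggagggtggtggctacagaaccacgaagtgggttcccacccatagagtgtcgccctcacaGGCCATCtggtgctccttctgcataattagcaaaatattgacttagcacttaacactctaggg

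Satb1 (chr17:51736187-51833290, minus strand) had the lowest of the 7 open promoters, with 0.967 in replicate 1 and 0.776 in replicate 2 (mean 0.871 ± 0.136, SD, n = 2). These stood at the 13.8th and 10.2nd percentile, although its promoter GC content (63.0%) was in the highest decile, where 85.2% of genes had a peak in both libraries. The peak at chr17:51813569-51813676 lay 889 bp from an internal start and 19.6 kb from the outermost one. At the outer starts replicate 2 alone had peaks, of 0.450 and 0.467. The call rests on low peaks: on the shorter peak list, with peaks at or above the median height, or with 500 bp around a start, Satb1 no longer counted, and Dlx2 was also lost on the shorter list. The tallest region called in both libraries away from its starts was the intronic chr17:51763738-51763899, with 0.728 and 0.584.

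Maf (chr8:115682942-115707794, minus strand), a bZIP factor gene, had the tallest promoter peak of the 10 genes, at 2.38 in replicate 1 and 2.44 in replicate 2 (mean 2.41 ± 0.0417, SD, n = 2). The gap between the libraries was the smallest of the 7, and the values stood at the 41.8th and 44.7th percentile. The lowest false discovery rate at its promoters was 3.01e-27 in replicate 1 and 1.3e-26 in replicate 2, against 5.73e-16 and 1.83e-11 at Sox6 and 4.69e-08 and 6.19e-05 at Dlx6. A further region, chr8:115709501-115709760, was centred 1.84 kb upstream with 1.15 and 0.993. Another, chr8:115650201-115650480, lay downstream of the gene with 0.967 and 1.00.

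Prox1 (chr1:190118035-190170714, minus strand), a homeobox gene, had a promoter peak of 1.31 in replicate 1 and 0.892 in replicate 2 (mean 1.10 ± 0.298, SD, n = 2) at chr1:190170599-190170840, across its start. Its lowest false discovery rates there were 2.14e-08 and 2.49e-05. Among the 3 regions called in both libraries away from its starts, chr1:190093361-190093620 had the highest mean of both libraries (0.528). It lay downstream, centred 75.9 kb from the start, and in replicate 2 it was the lowest of the 3. Its heights of 0.764 in replicate 1 and 0.292 in replicate 2 were the most unequal of all regions of the 8 windows, at -1.39 on the log2 scale of replicate 2 over replicate 1. Among the 7 promoters the spread between the libraries was largest at Dlx6 (SD 0.316), then Prox1 (SD 0.298).

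**Figure D2:**
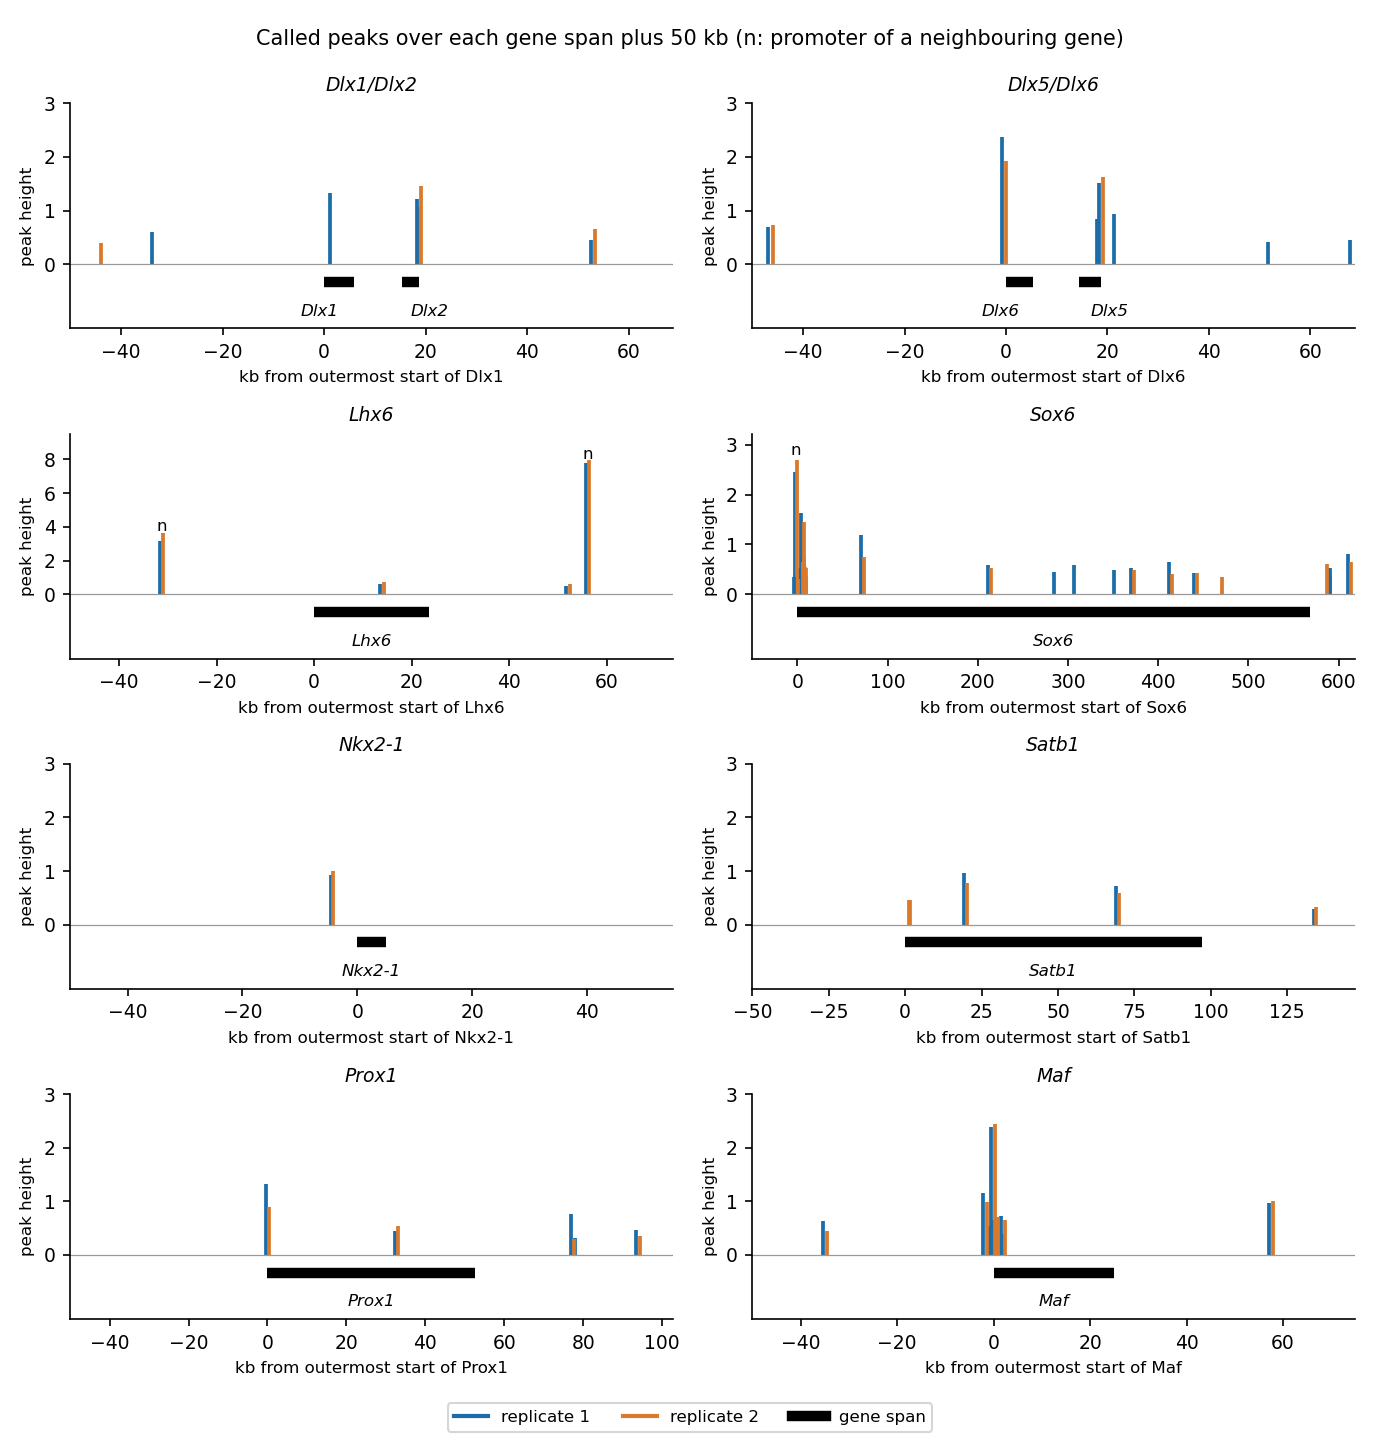
Height of every called peak (deposited signal value, scaled per library) against its distance in kb from the outermost start of the gene named under each panel, over gene span plus 50 kb, with black bars for the gene spans, replicate 1 and replicate 2 in colour and n for promoters of neighbouring genes. The stretch between the bars of each Dlx pair holds no peak, and the Nkx2-1 panel holds 1 position, at 0.920 and 0.993.

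Over all 8 windows (1608 kb, with the windows of paired Dlx genes joined), 65 regions were called in either library and 37 in both. The share called in both, 56.9%, was near the 56.1% of all regions of the genome. A further 20 were called in replicate 1 alone and 8 in replicate 2 alone. Of the 37, 16 lay at promoters of the 10 genes, 9 of them at Sox6, 3 lay at promoters of neighbours, and 18 lay farther than 1000 bp from every start, 7 of these inside one of the genes. In the genome 35.6% of such regions lay at a promoter. The heights of 33 of the 37 were within 1.5-fold of each other between the libraries, a count without a genome share beside it. Median width was 242 bp, against 244 bp for all regions called in both libraries, and median GC content was 54.7%, against 54.4%.

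The 37 regions were low for their libraries. Their median height was 0.693 in replicate 1 and 0.659 in replicate 2, against 1.07 and 1.02 for all 53659 regions called in both. In replicate 1, 14 of 37 (37.8%) stood above the library's median peak height, against 64.9% of all such regions. In replicate 2 it was 12 of 37 (32.4%), against 64.2%. The regions at promoters of the 10 genes had medians of 0.615 and 0.713, against 1.74 and 1.74 for all promoter regions. Sox6 alone supplied 14 of the 37 regions and 9 of the 16 at promoters of the 10 genes, so it weighs heavily in these medians. With only the tallest promoter peak of each gene, the medians were 1.52 and 1.46, against 3.03 and 2.96 over all genes. Those away from starts had medians of 0.669 and 0.630, against 0.920 and 0.851. Both kinds were thus lower than the same kind in the genome, and the tallest of all the windows were the promoters of neighbours, between 2.45 and 7.94.

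Regions were also sparse around most of these genes. The median over the 10 genes was 0.202 regions per 10 kb, against 0.347 over all genes, and 9 of the 10 were below that value. Maf was the exception, with 6 regions and 0.481 per 10 kb (66.8th percentile of all genes). Of these 6, 2 lay at its promoters, and those centred 1.19 kb and 1.84 kb from a start lay close beside them. Next came Lhx6 at 0.324, with 2 of its 4 regions at neighbours' promoters, Dlx6 at 0.285, Prox1 at 0.262 and Sox6 at 0.210 with 14 regions. Dlx2, Dlx5 and Dlx1 lay between 0.194 and 0.189, Satb1 had 0.152, and Nkx2-1 was lowest with 1 region and 0.0953. The difference depended on the flank: with 10 kb in place of 50 kb the median over the 10 genes was 0.336, against 0.360 over all genes, and 5 of 10 were below. With 100 kb it was 0.229, against 0.337, and 6 of 10 were below. The windows of paired Dlx genes overlap: at 50 kb those of Dlx1 and Dlx2 held the same 2 regions, and those of Dlx5 and Dlx6 had regions in common. The genes of a pair are therefore not separate observations in these counts.

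**Figure D3:**
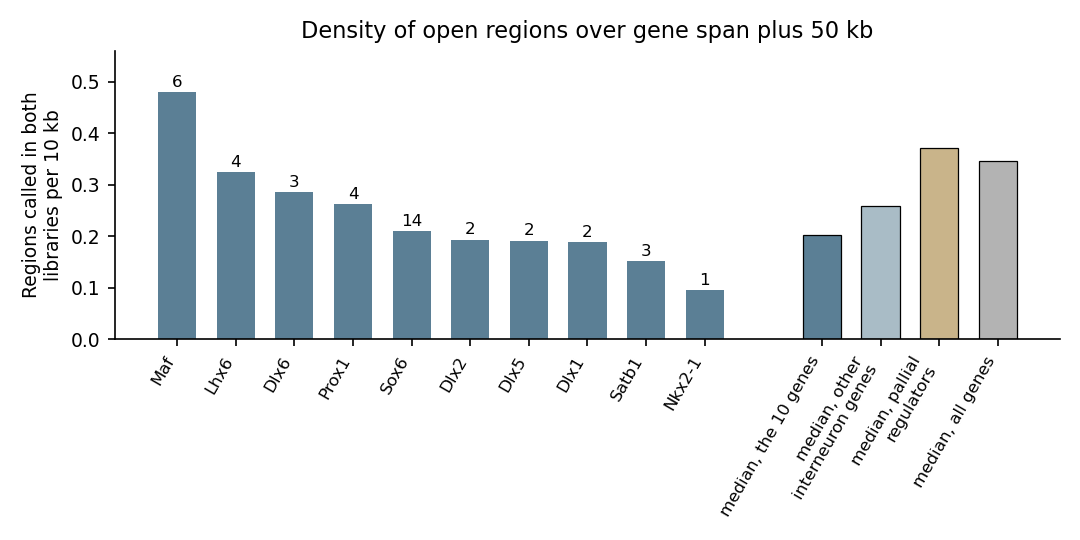
Regions called in both libraries per 10 kb of gene span plus 50 kb, for each of the 10 genes (the number over each bar counts its regions), and at right the medians of the 10 genes, of other interneuron genes, of pallial regulators and of all protein-coding genes. Maf alone stands above the median of all genes (0.347).

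Other genes of the interneuron programme were read from a list of 24. Of these, 15 had promoter peaks in both libraries (62.5%), 3 in 1 library and 6 in none. Gsx2 and Sp8, early ventral regulators, Nr2f1, Npas1 and the neuropeptide genes Sst and Vip had none. Etv1, one of the taller promoter peaks of the list, stood at 2.23 ± 0.134 (SD, n = 2). By the mean of both libraries, the lowest of the 15 were Npy, with 0.370 and 0.434, and Pvalb, with 0.908 and 0.534, each read at different peaks in the libraries. The list's median promoter heights were 1.40 in replicate 1 and 1.24 in replicate 2, and its median density was 0.259 regions per 10 kb, against 0.202 for the 10 genes. Among 10 regulators of pallial projection neurons, the excitatory neurons of the cortex, 9 had promoter peaks in replicate 1 and replicate 2, and Fezf2 had none. Bcl11b, one of the taller ones, reached 2.47 ± 0.593 (SD, n = 2). The medians of the 10 lineage genes (1.52 and 1.46) stood beside 1.78 and 1.31 for these regulators, so the order of the lists differed between the libraries. Their median density was 0.372.

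In these windows a smaller share of footprints coincided between the libraries than in the genome, a difference described here without a test. The windows held 84 footprints in replicate 1 and 105 in replicate 2. Of these, 40 (47.6%) and 36 (34.3%) overlapped a footprint of the other library, against 54.8% and 41.3% in the genome. Neighbours' promoters carried much of this overlap: in their 3 regions 15 of 17 footprints of replicate 1 and 13 of 15 of replicate 2 overlapped. In the other 34 regions it was 22 of 54 (40.7%) and 20 of 76 (26.3%). Over all regions called in both libraries it was 60.1% and 48.4%, but that set keeps the promoters of every gene, so the sets are unlike. The 34 regions were also lower than those of the genome, and the part of height in the overlap was not tested. Regions held 8.19 footprints per kb of peak in replicate 1 and 9.39 in replicate 2, against 10.4 and 11.8 over all regions.

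Footprint overlap differed between the genes. At Nkx2-1 all footprints overlapped, 4 of replicate 1 and 3 of replicate 2. At the Maf promoter region 3 of 4 and 3 of 6 overlapped, and at the Dlx6 promoter 2 of 2 and 3 of 3 did. The Prox1 promoter had 4 footprints in each library and no overlap. The region inside Maf at chr8:115705741-115706080 had 4 and 3 with no overlap, and Satb1 had 2 and 4 in its window with none. Every deposited footprint carries the same constant, 0.01, read as the calling threshold, so no footprint can be ranked above another.

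**Figure D4:**
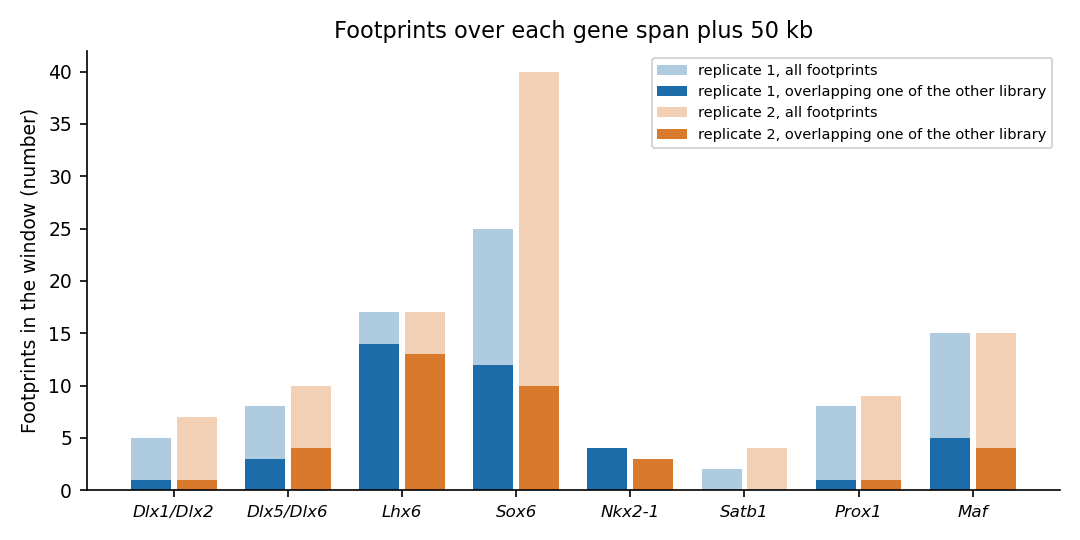
Number of footprints in each window of gene span plus 50 kb, replicate 1 left of replicate 2, with the full-colour part counting those that share at least 1 bp with a footprint of the other library. All footprints of Nkx2-1 overlap (4 and 3), none of Satb1 does, and those of Lhx6 include the promoters of neighbours.

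Short sequence motifs were counted in windows of 300 bp centred on the regions, on both strands, beside all 53659 regions called in both libraries. A match describes letters and not binding. The E-box CAGATG, bound by neuronal bHLH factors, was in 12 of 37 windows (32.4%), against 25.0% of all. The SP/KLF core GGGCGG was in 12 of 37 (32.4%), against 29.3%, and the E-box CAGCTG in 9 of 37 (24.3%), against 24.4%. TAATTA, the core read by DLX, LHX6 and many other homeodomain proteins, was in 1 of 37 (2.70%), against 4.39%, at the printed Sox6 intronic region, where it touched a footprint of replicate 1 alone. The NKX2-1 core CACTTGA was in 2 of 37 (5.41%), against 3.35%, at the Dlx5 and Dlx6 distal region and at the Satb1 promoter. The MAF core TGCTGA was in 6 of 37 (16.2%), against 23.9%, and the SOX core CATTGTT in 1 of 37, against 2.91%. The sets differ in make-up: 18 of the 37 (48.6%) lay away from promoters, against 34578 of all 53659 regions, a larger share. Away from promoters TAATTA was in 1 of 18 (5.56%), against 5.85%, and TGCTGA in 4 of 18 (22.2%), against 27.8%. There CAGATG was in 8 of 18 (44.4%), against 31.6%, and CATTGTT in 0 of 18, against 3.64%. With 37 windows, 1 window is 2.70%, and none of these shares was tested.

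Some longer matches touched footprints of both libraries in the printed regions. The cAMP response element TGACGTCA was in 2 of 37 windows (5.41%), against 1.49% of all, at the promoters of Dlx6 (position 6862891) and Maf (position 115707871). Away from promoters this element was in 0 of 18 windows, against 0.706% of all such regions. The share over promoter regions alone is not given, so the 5.41% has no like set beside it. Both copies touched footprints of replicate 1 and of replicate 2. Of the Maf copy only the first 2 bases lay in footprints of both, as the capitals of the printed sequences show. The CTCF core was in 2 of 37 (5.41%), against 10.7%, at the Nkx2-1 upstream region (chr12:56541283-56541294) and the Sox6 promoter region (chr7:116033103-116033114). Both were on the minus strand and overlapped footprints of both libraries, though not with every base. The AP-1 site TGANTCA was in 2 of 37, against 10.8%, at Satb1 and Maf. ETS (CCGGAAG), NRF1, POU (ATTTGCAT), RFX (GTTGCCATG), EGR (GCGTGGGCG), TCF/LEF (CTTTGAT), NFI and nuclear receptor DR1 letters were in 0 of 37, and all of these but ETS and TCF/LEF were in under 2% of all regions. The MEIS core TGACAG was in 5 of 37 windows (13.5%), against 21.6%, and the MEF2 site CTAAAAATA and the FOX core GTAAACA were in 1 each. None of the 21 motifs was in 6 windows, a count without a genome share beside it. A window can hold more than 1 motif, and motifs can overlap.

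**Figure D5:**
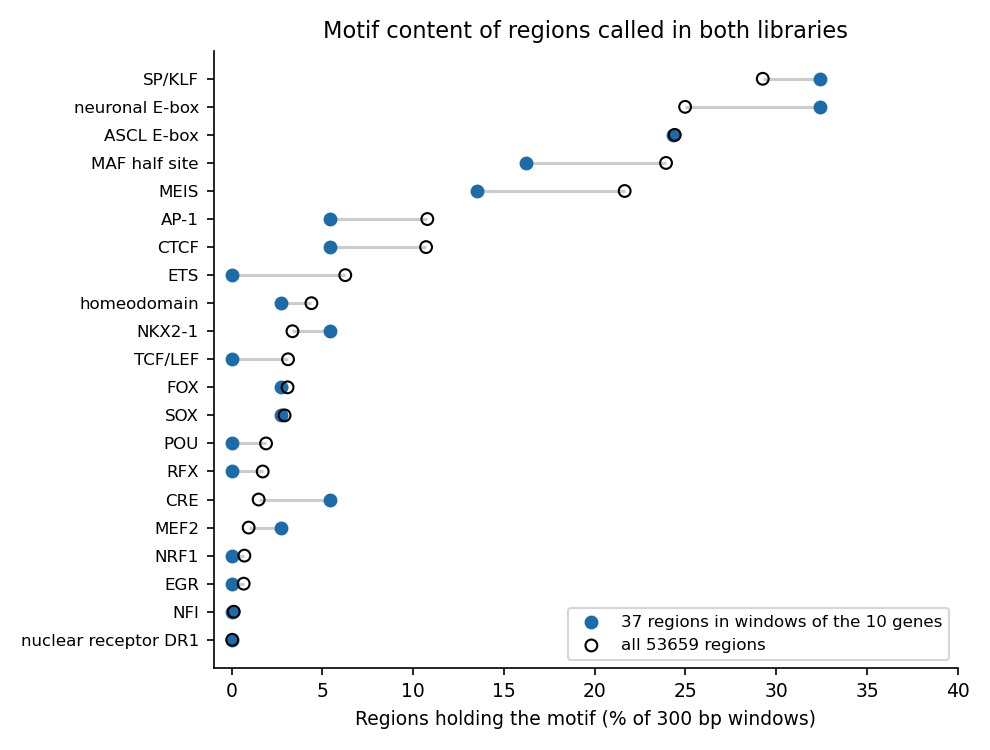
Share of windows of 300 bp that hold each of the 21 motifs on either strand, as filled points for the 37 regions in the windows of the 10 genes and open circles for all 53659 regions called in both libraries. The filled points of the SP/KLF core and the neuronal E-box stand highest (32.4% each). The CRE point stands at 5.41%, against 1.49%, with both copies at promoters and no share over promoters alone beside it.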

How the data were processed

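Each library was processed alone and nothing was pooled, per the deposited file descriptions. The authors deposited, for each library, 2 peak lists, of which the longer was used, with a height per peak (signal, scaled per library on a scale not stated). They also deposited footprints and a cut rate track. The deposited track holds false discovery rates (q-value scale) and lists the bases under 0.05, which make up 22.3 Mb of replicate 1 and 24.8 Mb of replicate 2. The deposited footprints carry the constant 0.01. The aligner and callers are not given in the sources used here. Reads of an F1 hybrid can align less well at variants of the non-reference parent, and the effect was not tested.

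Peaks of both libraries that overlapped by at least 1 bp were joined into regions called in both, with the highest height of each library. A promoter was 1000 bp on both sides of any GENCODE M21 start site. Promoter GC content was read around the outermost start of each gene alone. Peak joining was tested on simulated intervals. All comparisons are descriptions, and a mean ± SD combines 2 scales set per library. Named regions were, among those called in both libraries and by the mean of both heights, the tallest at a promoter and the tallest away from starts at each locus, with all regions between the Dlx pairs. A few other regions and peaks, among them those of neighbours, the second Maf regions, the region at the outermost Sox6 start and the peaks of 1 library, were chosen after their values were seen. The genes, lists and motifs were chosen with earlier results of these data known. Python 3.11.15, pandas 2.3.3, numpy 2.4.6, pysam 0.24.0, samtools 1.23.1 and matplotlib 3.10.9 were used. Alternatives were the shorter peak list, peaks at or above the median height, a reciprocal overlap of 50%, flanks of 10 and 100 kb, promoters of 500 and 2000 bp, and each library alone. Results on a few genes of the comparison lists are not reported here.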

Additional observations from a re-analysis of the deposited data

How the results depend on the processing

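Of 43 values under alternative settings, 19 stayed within the spread between the libraries or within 1.5-fold of the reported count, and 24 moved. The 0 regions between the paired Dlx genes stayed at 0 in all alternatives run. The open promoters of both libraries numbered 5 to 7, with 7 to 8 for each library alone. On the shorter peak list the regions called in both libraries fell to 18, the median density to 0.0926 per 10 kb (against 0.204 over all genes), and the median heights were 1.16 in replicate 1 and 0.993 in replicate 2. With peaks at or above the median height these values were 12, 0.0960 (against 0.211), 1.58 and 1.54. A flank of 10 kb gave a density of 0.336, a replicate 2 height of 0.713 and 25 overlapping footprints of replicate 1, and a flank of 100 kb gave 62 regions, heights of 0.746 and 0.717 and 64 footprints. A reciprocal overlap of 50% gave a replicate 2 height of 0.713 and 24 footprints. In single libraries (leaving out 1 replicate), regions numbered 47 to 59, densities were 0.288 to 0.382, footprints numbered 84 to 105, and median heights were 0.585 in replicate 1 and 0.617 in replicate 2. The cause of these moves was not tested, apart from stricter lists holding fewer peaks and longer flanks more DNA. No paired analysis was possible because both libraries belong to 1 group. The unknown read depth limits what a missing peak can say, and 2 libraries limit the precision of each value.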
